A study of Rattus norvegicus with 72 samples.

Results

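The genes described here are the chemokine ligands and receptors of the rat, taken as every probe set whose single gene symbol starts with Ccl, Cxcl, Cx3cl, Xcl, Ccr, Cxcr, Cx3cr or Ackr followed directly by a digit. The rule found 58 probe sets of 20826 that carry a single symbol, out of 31042 in the table, and these probe sets stand for 45 genes of 14217. A gene with several probe sets, which was the case for 8 genes, was described by its brightest probe set, judged by the mean of the 60 arrays outside the microgravity set. Of the 45 genes, 29 encode ligands and 16 encode receptors, and 4 of the receptors are atypical receptors.

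Chemokines are small secreted proteins that draw leukocytes along a gradient by acting on receptors coupled to G proteins. Atypical receptors bind chemokines without that signal and remove or redistribute them, while homeostatic chemokines position lymphocytes in lymphoid and mucosal tissue and inflammatory chemokines are induced by cytokines and microbial products. In the lactating mammary gland, Ccl28 is known as the mucosal chemokine that attracts IgA-secreting plasma cells, whose antibody is passed to the young in milk.

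RNA was measured on 72 whole-genome rat arrays in 15 groups. Mammary gland, liver and adipose tissue were each sampled from pregnant and lactating rats kept at standard gravity or in hypergravity, with 5 arrays in each of these 12 groups. A further 12 arrays came from mammary gland of pregnant rats in microgravity, of their flight controls and of their vivarium controls, with 4 arrays in each group. The labels give no age, strain, day of gestation or lactation, time of day or strength of the hypergravity, and no genotype or drug treatment, and they do not say which fat depot or mammary gland was taken. Arrays of the first 12 groups carry a tissue letter, a rat number and S or H for the gravity, so that M203H, L203H and A203H come from the same rat in hypergravity. The microgravity set is labelled FLT, FDS for the flight controls and VIV for the vivarium controls, with a letter A to D.

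Values are log2 signals, on which 1 unit is a doubling. Array medians lay between 4.32 and 4.56 in the 60 arrays of the first 12 groups and between 4.87 and 5.02 in the microgravity set, so levels were compared only within a set. The labelled tissues matched their markers: the mean of 7 milk protein genes lay between 11.67 and 12.80 in the mammary groups used, that of 11 hepatocyte genes between 11.89 and 12.22 in liver, and that of 11 adipocyte genes between 9.28 and 10.46 in adipose tissue. M210H and A210H went against their labels and were left out, which left 4 lactating hypergravity arrays in mammary gland and in adipose tissue and 19 arrays in each of those tissues. Another 11 arrays carried markers of a second tissue, among them M52S and M56H with hepatocyte genes and M50H and M212H with skeletal muscle genes. In RNA from whole tissue, fewer cells of a type and less RNA per cell cannot be told apart.

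The chemokine genes lie partly in clusters. On the RefSeq rat assembly GRCr8 all 45 were placed, and 26 of them fell into 8 clusters with under 250 kb between neighbours. Ccl2, Ccl7 and Ccl11 lie within 27.5 kb at chr10:67503077-67530576, and Ccl5, Ccl9, Ccl6, Ccl3 and Ccl4 within 145 kb at chr10:68820330-68965728. The interferon-induced ligands Cxcl11, Cxcl10 and Cxcl9 lie within 38.4 kb at chr14:15973728-16012077, next in order to the neutrophil ligands Cxcl2, Cxcl1, Cxcl3 and Cxcl6 at chr14:17465210-17596417. Ccl17, Cx3cl1 and Ccl22 share 62.2 kb of chromosome 19, and Ccl27, Ccl19 and Ccl21 share 40.3 kb of chromosome 5. Ccl28 stands alone at chr2:53334071-53358709.

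RefSeq promoter sequences of GRCr8 matched 35 of the 45 genes. The 250 bases before the start are shown for 5 of the genes called in a mammary comparison. Apart from Ccl28 they are all among the 9 genes with an NF-kB match named below. Other called genes, such as Cxcl16 and Ccr1, are not shown. Ccl28 differed with stage and gravity, the neutrophil ligand Cxcl1 and the monocyte ligand Ccl7 were higher in hypergravity lactation than in lactation at standard gravity, and Cxcl10 and Cxcl11 were lower in lactation than in pregnancy in hypergravity. Capitals mark an E-box (CACGTG) in the Ccl28 promoter and matches to the NF-kB motif, searched on both strands, in the other promoters. The Ccl28 stretch is chr2:53333821-53334070 on the plus strand, Cxcl1 is chr14:17479322-17479571 on the minus strand, Ccl7 is chr10:67513845-67514094, Cxcl10 is chr14:15988816-15989065 and Cxcl11 is chr14:15973478-15973727, these 3 on the plus strand.
Ccl28: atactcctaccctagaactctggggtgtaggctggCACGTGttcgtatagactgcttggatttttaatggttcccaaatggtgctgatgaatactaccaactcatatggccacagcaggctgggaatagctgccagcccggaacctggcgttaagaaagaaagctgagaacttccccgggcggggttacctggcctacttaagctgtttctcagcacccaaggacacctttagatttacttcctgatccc
Cxcl1: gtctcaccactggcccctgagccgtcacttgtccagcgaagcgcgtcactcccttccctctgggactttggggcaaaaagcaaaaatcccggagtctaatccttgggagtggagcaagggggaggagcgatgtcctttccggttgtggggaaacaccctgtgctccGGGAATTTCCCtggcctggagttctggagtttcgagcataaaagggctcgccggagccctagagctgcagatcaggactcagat
Ccl7: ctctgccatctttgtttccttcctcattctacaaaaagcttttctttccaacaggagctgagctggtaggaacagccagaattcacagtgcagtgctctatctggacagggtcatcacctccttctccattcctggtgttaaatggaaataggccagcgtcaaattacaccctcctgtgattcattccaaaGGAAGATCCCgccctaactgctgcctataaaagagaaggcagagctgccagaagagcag
Cxcl10: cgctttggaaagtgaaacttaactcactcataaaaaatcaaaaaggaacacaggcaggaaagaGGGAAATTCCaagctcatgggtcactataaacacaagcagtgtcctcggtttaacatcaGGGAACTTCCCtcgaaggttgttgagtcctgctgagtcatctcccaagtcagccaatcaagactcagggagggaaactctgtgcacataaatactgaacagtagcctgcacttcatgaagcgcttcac
Cxcl11: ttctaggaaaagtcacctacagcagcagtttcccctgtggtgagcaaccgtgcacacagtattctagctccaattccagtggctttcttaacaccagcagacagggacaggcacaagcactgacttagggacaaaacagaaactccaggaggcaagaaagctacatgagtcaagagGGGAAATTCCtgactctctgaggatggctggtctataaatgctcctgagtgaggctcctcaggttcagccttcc
The NF-kB motif, bound by the transcription factors that induce many inflammatory chemokines, was found in 9 of the 35 promoters (25.7%) and in 6.33% of 33469 rat promoters of the same length. The 9 genes were Ccl7, Ccl9, Ccl20, Ccr3, Cxcl1, Cxcl2, Cxcl6, Cxcl10 and Cxcl11. The matches lay 84 bases before the start in Cxcl1, 59 in Ccl7 and 74 in Cxcl11, and Cxcl10 held matches 187 and 128 bases before the start. TATAAA was found in 10 promoters (28.6% against 12.9% of all), the interferon-gamma activated site TTCNNNGAA in 4 (11.4% against 7.67%) and the interferon-stimulated response element GAAANNGAAA in 2, Ccl19 and Cxcl10 (5.71% against 3.41%). The E-box was found in 1 promoter, that of Ccl28 (2.86% against 5.59%). All were searched on both strands, a promoter was counted once for a motif, and no match of a motif overlapped a match of another in these promoters. These matches describe letters in the sequence and are not measured binding sites.

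More chemokine genes were called between tissues than between stages or gravities within a tissue, and the same held for all probe sets. The tissue comparisons used 19 or 20 arrays per tissue, and the others 4 or 5 per group. Between mammary gland and liver, 31 of 45 genes passed limma's test, where a call is a Benjamini-Hochberg adjusted p under 0.05 over all probe sets, with 15 higher and 16 lower in mammary gland. The share called among all probe sets was 66.6%. Between mammary gland and adipose tissue 27 genes were called, 9 higher and 18 lower, against 52% of all probe sets. Between adipose tissue and liver 30 were called, 18 higher and 12 lower in adipose tissue, against 61.7% of all. The median log2 difference over the 45 genes was 0.00, -0.08 and 0.14 in these 3 comparisons, and over all probe sets -0.05, 0.00 and -0.05.

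**Figure D1:**
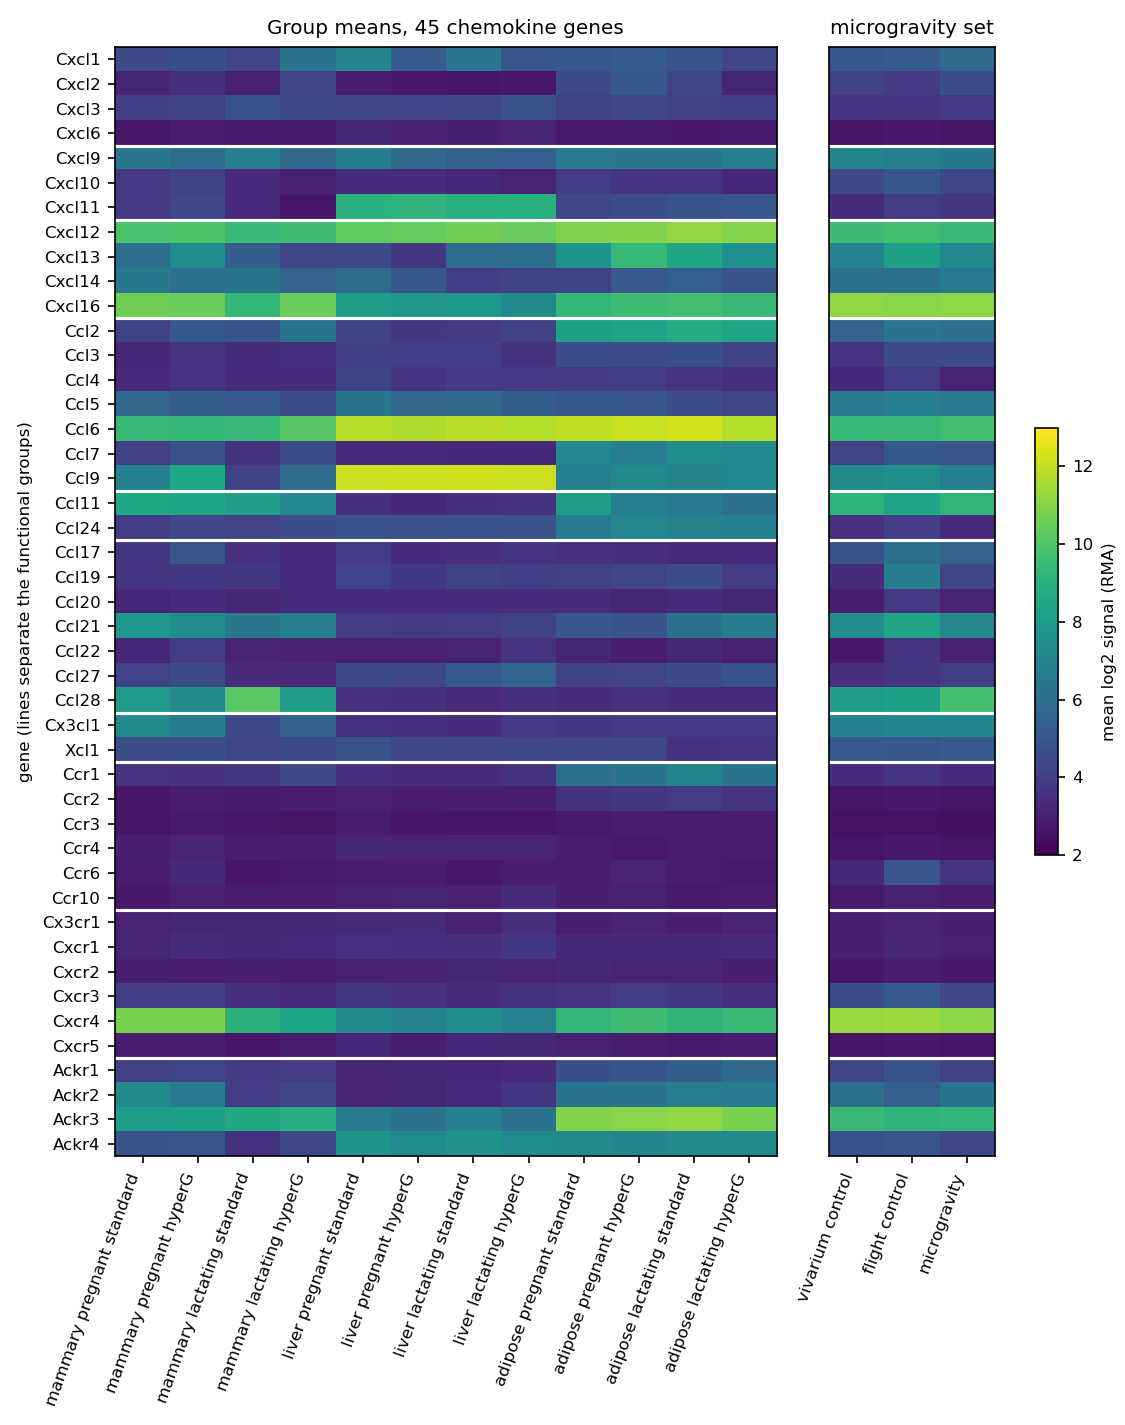
Mean log2 signal (colour) of each of the 45 chemokine genes (rows, divided by white lines into ligand and receptor groups). Columns are the 12 standard gravity and hypergravity groups (left) and the 3 groups of the microgravity set (right). Both panels use the same colour scale, but levels are compared only within a panel. Rows can be read across but not against each other, since each is a different probe set; Ccl28 is high in the mammary columns alone, and Ccl9 and Cxcl11 are highest in the liver columns.

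Among the ligands, Ccl28 marked the mammary gland. Its signal in the 19 mammary arrays ran from 6.28 through a median of 8.43 to 10.57, in the 20 liver arrays from 3.19 through 3.42 to 4.07 and in the 19 adipose arrays from 2.99 through 3.47 to 3.87. Every mammary array lay above every liver and adipose array, and the liver and adipose values lay below the array medians. The log2 difference was 4.87 against liver (SE 0.14, adjusted p = 8.94e-35) and 4.88 against adipose tissue (SE 0.14, adjusted p = 8.26e-34). Cxcl16, the membrane-bound ligand of Cxcr6, was also higher in every mammary array than in every liver array, with 9.19 to 11.20 against 6.33 to 8.38 and a difference of 2.50. Ccl11, the eosinophil attractant eotaxin, ran from 6.57 to 9.30 in mammary gland and from 3.05 to 4.17 in liver, a difference of 4.58. Ccl21, which guides T cells and dendritic cells into lymph vessels and nodes, ran from 5.30 to 8.47 and from 3.09 to 5.09. All 4 ligands were called against liver with no overlap between the arrays. Against adipose tissue only Ccl28 was without overlap. The adipose arrays ran from 8.36 to 10.25 for Cxcl16, from 4.53 to 9.34 for Ccl11 and from 3.08 to 9.51 for Ccl21.

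The liver carried its own ligands. Ccl9, a CC chemokine of myeloid cells, measured 11.56 to 12.46 in liver, 4.76 to 8.83 in adipose tissue and 2.78 to 11.46 in mammary gland. Its mammary mean was 5.78 log2 units below liver (SE 0.35, adjusted p = 2.10e-20), and no mammary or adipose array reached the lowest liver array. Cxcl11, an interferon-induced ligand of Cxcr3, measured 8.16 to 9.58 in liver against at most 5.57 in mammary gland and 5.69 in adipose tissue, and was lower than liver by -5.50 in mammary gland and -4.30 in adipose tissue. Of the other interferon-induced ligands, Cxcl9 was higher in mammary gland than in liver by 0.46 (adjusted p = 0.011), which was not called with median scaling (0.34, adjusted p = 0.0572), and Cxcl10 was not called in any of the 3 tissue comparisons. Ccl6, a further myeloid CC ligand, was not particular to the liver. It ran from 11.52 through a median of 11.78 to 11.98 in liver. In adipose tissue it ran from 10.85 through 12.12 to 12.46, and in mammary gland it reached at most 10.53.

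Several monocyte ligands were higher in adipose tissue than in liver, although Ccl9 was not. Ccl2, which recruits monocytes through Ccr2, ran from 6.18 through 8.62 to 10.12 in adipose tissue, from 3.63 through 4.93 to 7.98 in mammary gland and from 3.01 through 4.03 to 5.01 in liver. Its neighbour Ccl7 ran from 4.98 through 7.26 to 8.59 in adipose tissue. The adipose arrays were all above the liver arrays for both genes, by 4.52 for Ccl2 and 3.78 for Ccl7, and overlapped with the mammary arrays. Ccr1, a receptor of Ccl3, Ccl5 and related ligands on myeloid cells, was likewise higher than in liver in all adipose arrays, by 2.91 (SE 0.14, adjusted p = 9.51e-25). A48S, an adipose array with skeletal muscle genes, held the lowest adipose values of Ccl2, Ccl7, Ccr1, Cxcl13 and Ccl24. Without the arrays carrying markers of another tissue every one of these calls remained.

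The atypical receptors differed among the tissues. Ackr3, which scavenges Cxcl12, ran from 10.33 through 11.04 to 11.51 in adipose tissue, from 7.35 to 9.22 in mammary gland and from 5.48 to 7.56 in liver. Adipose arrays were above all others, with differences of 4.58 against liver and, for mammary gland against adipose tissue, of -2.52. Ackr4, the scavenger of Ccl19, Ccl21 and Ccl25, ran from 6.67 to 8.43 in liver and from 5.64 to 8.27 in adipose tissue, and from 3.06 to 5.59 in mammary gland, which was below both in every array. Ackr1 is the Duffy antigen receptor of erythrocytes and venules, and Ackr2 degrades inflammatory CC ligands. Averaged over stages and gravities, both were highest in adipose tissue, with means of 5.13 and 6.45. For Ackr2 this did not hold within each stage. Pregnant mammary gland at standard gravity averaged 7.23, and the highest mammary array (8.42) lay above the highest adipose array (7.72). The second probe set of Ackr2, which is dim, differed by 0.19 between adipose tissue and liver where the brighter differed by 3.10.

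Among the signalling receptors, Cxcr4, the receptor of Cxcl12, was above the array medians in every array, at 8.04 to 11.42 in mammary gland, 8.56 to 10.85 in adipose tissue and 6.37 to 7.68 in liver. Mammary and adipose tissue exceeded liver by 2.68 and 2.31 with no overlap. Its ligand Cxcl12 was bright in all 3 tissues, and its 3 probe sets disagreed between adipose tissue and liver, with differences of 0.55, -1.89 and -0.20. The lymphocyte and granulocyte receptors Ccr3, Ccr4, Ccr10, Cxcr1, Cxcr2 and Cxcr5 had tissue means of at most 3.58, under the array medians, so that fold changes of these genes would understate any difference.

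**Figure D2:**
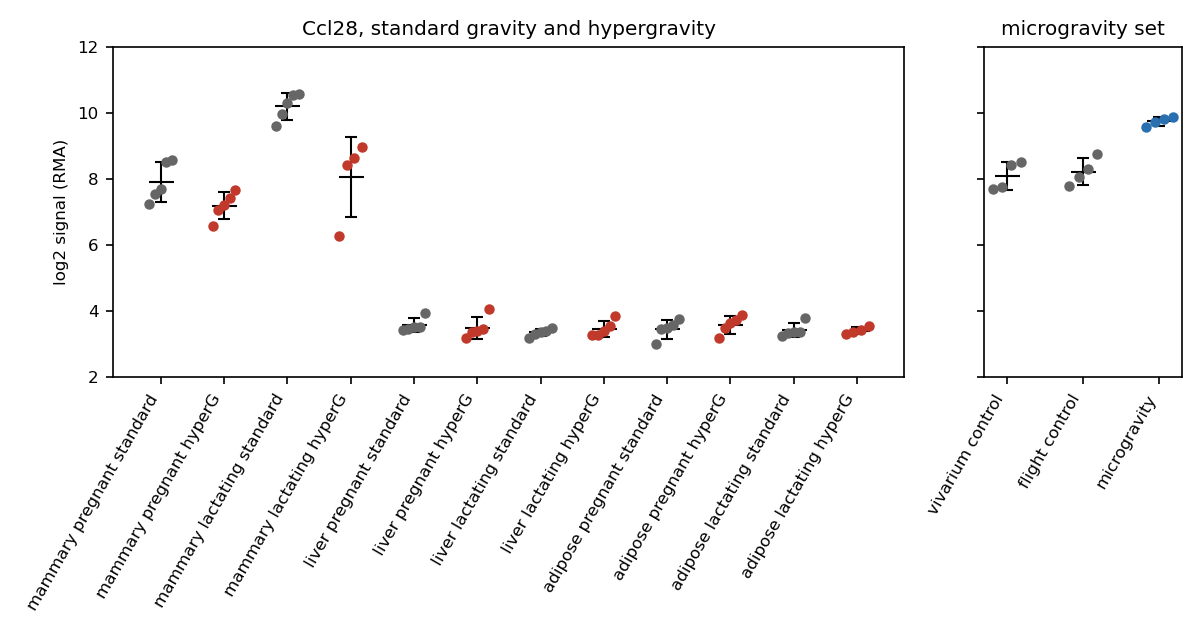
Log2 signal of Ccl28 on each array (points) in the 12 standard gravity and hypergravity groups (left) and in the microgravity set (right), with group mean and SD (bars); red marks hypergravity and blue microgravity. Lactating glands at standard gravity sit between 9.61 and 10.57, above every other array of the left panel, and the 4 microgravity arrays sit above all 8 controls on the right.

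Within the mammary gland, Ccl28 was called for stage at standard gravity and for gravity in lactation. At standard gravity it measured 7.54, 7.25, 7.71, 8.59 and 8.52 in pregnancy and 9.97, 10.56, 10.57, 9.61 and 10.31 in lactation. All lactating arrays were higher than all pregnant arrays, by 2.28 log2 units or 4.86-fold (SE 0.41, adjusted p = 3.32e-04). In hypergravity it measured 7.66, 7.43, 7.22, 7.06 and 6.59 in pregnancy and 6.28, 8.96, 8.63 and 8.43 in lactation. The lactating array M203H was below every pregnant array and the other 3 above them, and the difference of 0.88 was not called (adjusted p = 0.138). Without M203H it was 1.48 (SE 0.31, adjusted p = 0.00359), which passed the test, a setting chosen after the data were seen. Lactating glands in hypergravity were all lower than those at standard gravity, by -2.13 (SE 0.43, adjusted p = 0.00311), and without M203H the difference was -1.53 (adjusted p = 0.00541). Both comparisons use the standard gravity lactation group, and the difference of the stage effect between gravities, -1.40 (SE 0.59), was not called (adjusted p = 0.258). In pregnancy hypergravity differed from standard gravity by -0.73, with overlapping arrays and no call.

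At standard gravity 10 of 45 chemokine genes were called between lactating and pregnant mammary gland, 2 higher and 8 lower in lactation, against 34.1% of all probe sets. The median log2 difference was -0.17 over the 45 genes and -0.01 over all probe sets. In hypergravity 15 were called, 4 higher and 11 lower, against 29.3% of all probe sets, with medians of -0.21 and -0.04. The share among the chemokine genes was 22.2% at standard gravity and 33.3% in hypergravity, near or below that of the array as a whole. Only 24 of the 45 genes lay above the array medians in at least 1 mammary group. With only the pregnant and lactating hypergravity arrays in the fit, 8 were called in hypergravity, and Ccl17, Ccl2, Ccl22, Ccl5, Ccl6, Cx3cl1 and Cxcl1 were not.

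Cell type markers moved with stage at standard gravity, where 34.1% of all probe sets were called. The macrophage mean ran from 8.06 to 8.42 in pregnancy and from 6.99 to 7.37 in lactation, with 7 of 13 genes called lower and 0 higher. The luminal epithelium mean ran from 9.04 to 9.70 and from 8.35 to 8.44, with 7 of 11 lower and 0 higher, and the dendritic cell mean from 4.80 to 5.35 and from 4.31 to 4.74, with 1 of 5 lower. The milk protein mean ran from 12.13 to 12.32 and from 12.63 to 12.80, with 3 of 7 higher. None of these ranges overlapped, and their part in the chemokine differences was not tested.

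Ackr2, Cxcr4, Cx3cl1 and Ccl27 were called lower in lactation at both gravities. Ackr2 measured 6.10 to 7.74 in pregnancy and 2.88 to 4.64 in lactation at standard gravity, with no overlap. Its difference was -3.26 at standard gravity (SE 0.52, adjusted p = 1.34e-04) and -2.29 in hypergravity (SE 0.55, adjusted p = 0.0048), while its dimmer probe set gave -0.32 and 0.02. Cxcr4 measured 10.67, 11.30, 10.69, 10.52 and 10.67 in pregnancy and 8.91, 8.92, 9.30, 9.07 and 8.70 in lactation at standard gravity. In hypergravity the pregnant arrays ran from 9.996 to 11.42 and the lactating arrays from 8.04 to 9.24, again apart. The differences were -1.79 (adjusted p = 6.17e-05) and -2.29 (adjusted p = 2.52e-05), and a second bright probe set gave -1.75 and -2.24.

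Cx3cl1, or fractalkine, a membrane-bound ligand of Cx3cr1 on monocytes and cytotoxic lymphocytes, measured 6.73 to 7.53 in pregnancy and 4.12 to 5.03 in lactation at standard gravity. Its difference was -2.62 (SE 0.36, adjusted p = 3.82e-05) without overlap. In hypergravity it was -1.24 (adjusted p = 0.0216), with overlap, since M56H measured 5.18 in pregnancy and M203H 6.24 in lactation. This call ended when M59H (-1.10), M50H (-1.07), M212H (-1.01) or M206H (-1.19) was left out, with adjusted p up to 0.0828. Ccl27, the skin chemokine of Ccr10, was lower by -0.94 and -1.17 at the 2 gravities, with values in lactation of 2.90 to 3.82, under the array medians.

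Other genes were called at standard gravity alone, which does not show a difference between gravities. Ackr4 measured 4.22 to 5.39 in pregnancy and 3.06 to 4.15 in lactation, a difference of -1.28 (adjusted p = 0.00229). Cxcl16 measured 10.43 to 11.20 in pregnancy and 9.19 to 9.48 in lactation, a difference of -1.29 (SE 0.21, adjusted p = 1.29e-04). Ccl21 was lower by -1.49 (adjusted p = 0.0296) with overlap, since M219S at 8.47 lay above every pregnant array, and Cxcl3, a neutrophil ligand, was higher by 0.72 (adjusted p = 0.0357). Leaving out any of 6 single arrays ended the Ccl21 call (M216S -1.35, M52S -1.45, M42S -1.38, M214S -1.22, M202S -1.32, M48S -1.41), and any of 5 the Cxcl3 call (M52S 0.64, M44S 0.74, M201S 0.57, M57S 0.70, M202S 0.51). Adjusted p then reached 0.0877 for Ccl21 and 0.108 for Cxcl3.

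Ccl9 was lower in lactation at standard gravity by -2.65 (SE 0.96, adjusted p = 0.0393). It measured 9.28, 6.43, 5.90, 7.17 and 5.33 in pregnancy and 3.67, 2.78, 5.95, 3.88 and 4.59 in lactation, with overlap. M52S, the highest, had a hepatocyte gene mean of 6.45, the highest of its group. M57S had the next highest hepatocyte mean of that group, 5.29, and the next highest Ccl9, 7.17. In lactation at standard gravity M219S (4.18) and M202S (4.12) had the highest hepatocyte means, with Ccl9 at 5.95 and 4.59. In hypergravity M56H had the highest hepatocyte mean of the mammary arrays outside the microgravity set, 9.64, and the highest Ccl9, 11.46. M55H, M59H and M212H had hepatocyte means of 3.72, 3.82 and 3.64, with Ccl9 at 9.21, 8.46 and 8.54. Without all 4 mammary arrays that carried markers of another tissue the difference was -2.03 (adjusted p = 0.0277). Leaving out M52S alone gave -2.03 (adjusted p = 0.12), and the call also ended without M216S (-2.52), M201S (-2.30), M57S (-2.56), M214S (-2.57) or M202S (-2.75). The part of hepatocyte RNA in the result was not tested beyond these values.

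**Figure D3:**
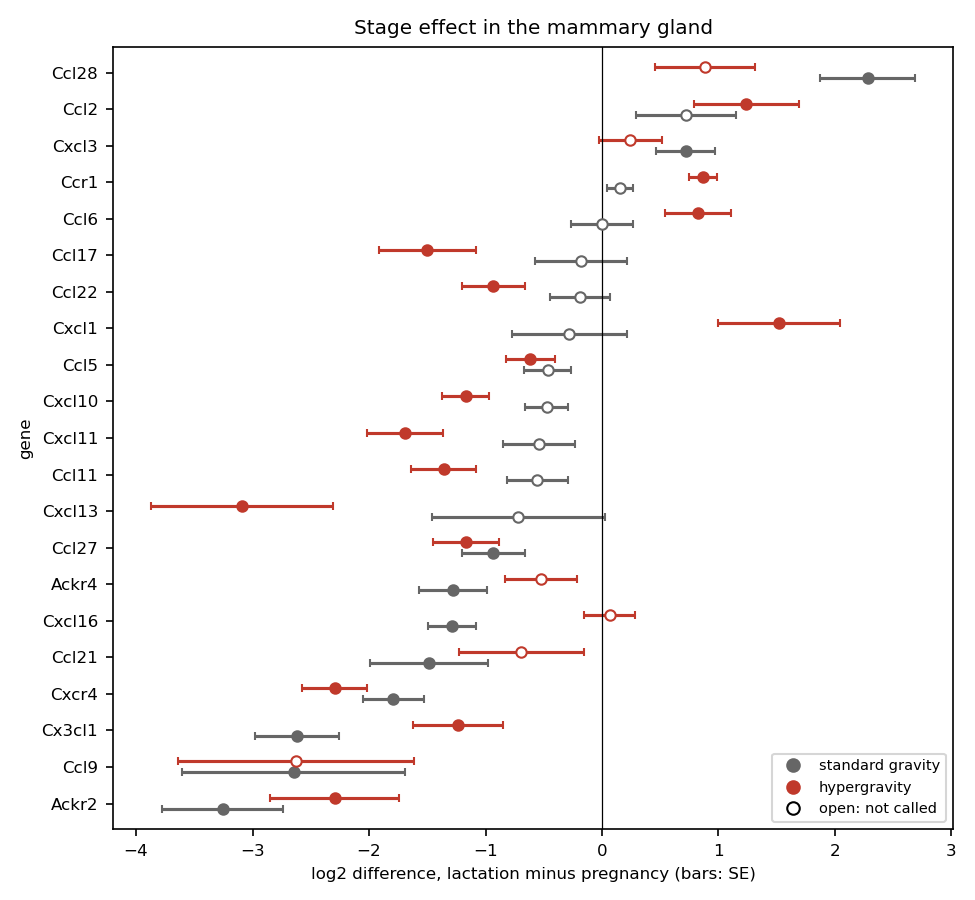
Log2 difference between lactating and pregnant mammary gland (x axis, bars show SE) for the 21 chemokine genes called at either gravity (y axis), grey for standard gravity and red for hypergravity; filled points passed the test and open points did not. Ackr2, Cx3cl1, Cxcr4 and Ccl27 are filled to the left at both gravities, and Ccl28 is filled on the right at standard gravity with an open point at 0.88 in hypergravity.

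In hypergravity, 2 of the 3 interferon-induced ligands were called lower in lactation, Cxcl10 and Cxcl11, while Cxcl9 differed by -0.08 and was not called. Of the 7 lymphoid, dendritic and mucosal CC ligands 3 were called lower (Ccl17, Ccl22 and Ccl27) and 0 higher. Among all 31042 probe sets 29.3% were called in this comparison, 4540 lower and 4540 higher. Cxcl10, which draws activated T cells through Cxcr3, measured 4.54, 3.71, 4.598, 3.59 and 4.15 in pregnancy and 3.11, 2.60, 2.98 and 3.11 in lactation. Cxcl11 measured 4.63, 3.17, 3.92, 4.35 and 5.57 in pregnancy and 2.63, 2.62, 2.71 and 2.58 in lactation. Neither gene overlapped between stages, with differences of -1.17 (SE 0.20, adjusted p = 3.91e-04) and -1.69 (SE 0.33, adjusted p = 0.00101), and all lactating values lay under the array medians. At standard gravity the differences were -0.47 and -0.54 and were not called, and the change of the stage effect was not called either (adjusted p = 0.207 and 0.202).

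Cxcl13, which gathers B cells through Cxcr5, measured 8.19, 7.04, 6.93, 4.98 and 9.71 in pregnancy and 3.91, 3.83, 4.45 and 4.94 in lactation in hypergravity. The groups did not overlap, with M56H just above M206H, and the difference was -3.09 (SE 0.78, adjusted p = 0.00656). Ccl17 (-1.498) and Ccl22 (-0.94), ligands of Ccr4 on T cells, Ccl5 (-0.61) and Ccl11 (-1.36) were also called lower. The second probe set of Ccl22 differed by 0.09, and the mean of both gave -0.42 (adjusted p = 0.0833), which was not called. M60H held the highest pregnant values of Cxcl13, Cxcl11 and, at 6.65, Ccl17, and it had the highest means of the T and NK cell list (6.52) and the B and plasma cell list (5.32) in its group. Of the 16 T and NK cell genes 8 were called lower and 0 higher in the same comparison, and the list mean ran from 4.45 to 6.52 in pregnancy and from 3.85 to 4.19 in lactation. Of the 8 B and plasma cell genes 0 were called by limma and the list mean ran from 3.63 to 5.32 and from 4.04 to 4.54. The share of lymphocyte RNA in these chemokine differences was not tested. Without M60H the Cxcl13 difference was -2.50 and the Ccl17 difference -1.06, both still called.

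Ccr1, Cxcl1, Ccl2 and Ccl6 were called higher in lactation in hypergravity. The neutrophil mean ran from 4.01 to 4.26 in pregnancy and from 5.16 to 6.00 in lactation, with 2 of 6 genes called higher, and its part in these differences was not tested. Ccr1 measured 3.35 to 3.76 in pregnancy and 4.27 to 4.58 in lactation, a difference of 0.87 (SE 0.12, adjusted p = 7.71e-05) without overlap. Cxcl1 (1.52, adjusted p = 0.0369), Ccl2 (1.24, adjusted p = 0.0469) and Ccl6 (0.83, adjusted p = 0.0356) overlapped between stages. The Ccl2 call remained only without M42S, M56H, M217H or M206H and ended without any of the other 15 mammary arrays, and without M203H, the highest lactating array at 7.98, its difference was 0.67 (adjusted p = 0.212). Leaving out single arrays moved Cxcl1 between 1.11, without M217H, and 1.89, and ended its call without any of 7 arrays (M59H, M55H, M50H, M203H, M60H, M217H and M206H). Ccl6 ranged from 0.67 to 1.00 and lost its call without M59H, M50H, M212H, M60H, M217H or M206H, and Ccl5 ranged from -0.77 to -0.46 and lost it without M59H, M50H, M203H, M60H, M217H or M206H.

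Between hypergravity and standard gravity in lactation, 7 of 45 chemokine genes were called, 4 higher and 3 lower in hypergravity, against 9.43% of all probe sets. The chemokine share was 15.6%, and the median differences were 0.09 over the 45 genes and 0.01 over all probe sets. The number called fell to 4 when M201S or M203H was left out and reached 8 at most. In pregnancy 0 of 45 genes were called by limma between the gravities, against 0.00322% of all probe sets, with 8 genes at an unadjusted p under 0.05. The smallest p values there were those of Ccl3, an inflammatory CC ligand, with 3.72 against 3.21, of Ccl17 with 4.91 against 3.73 and of Ccl4 with 3.71 against 3.37, at adjusted p of 0.699 to 0.747.

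**Figure D4:**
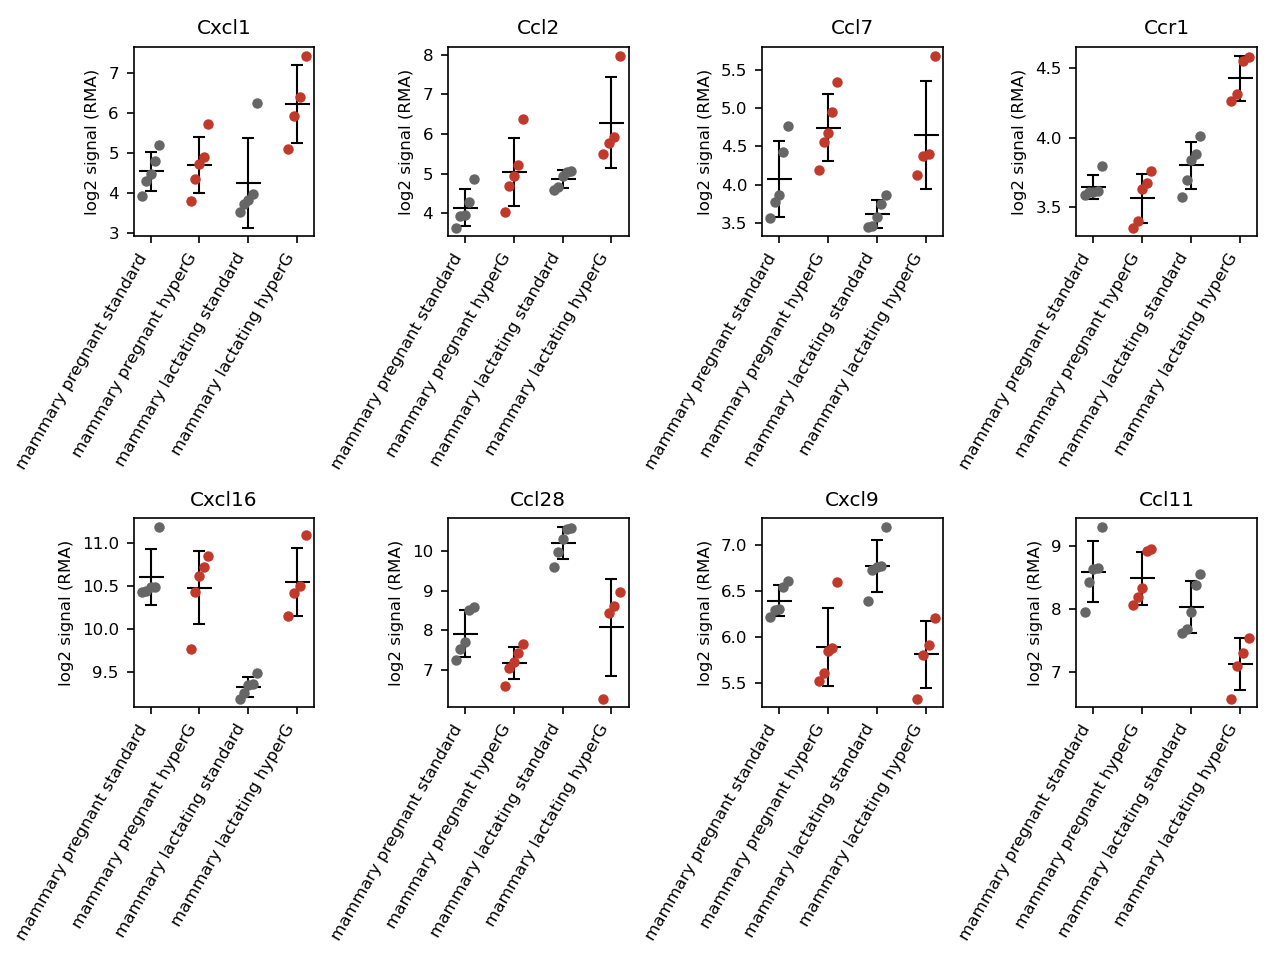
Log2 signal on each mammary array (points, red for hypergravity) of 8 chemokine genes in the 4 mammary groups of stage and gravity, with mean and SD (bars). For Ccr1 and Cxcl16 the 4 hypergravity lactation arrays all lie above the 5 standard gravity lactation arrays, while Ccl28, Cxcl9 and Ccl11 lie below them.

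Cxcl16 and Ccr1 were higher in hypergravity lactation. Cxcl16 measured 11.10, 10.16, 10.51 and 10.43 there against 9.19, 9.25, 9.48, 9.35 and 9.35 at standard gravity. The arrays did not overlap, and the difference was 1.22 (SE 0.22, adjusted p = 0.00111). Ccr1 measured 4.32, 4.27, 4.58 and 4.55 against 4.01, 3.69, 3.57, 3.84 and 3.89. All hypergravity arrays were higher, by 0.63 (SE 0.12, adjusted p = 0.00186), at levels near the array medians. These were also the genes whose stage effect differed between the gravities, 2 of 45 against 4.03% of all probe sets, with interaction terms of 1.35 for Cxcl16 (SE 0.30, adjusted p = 0.0141) and 0.71 for Ccr1 (SE 0.16, adjusted p = 0.0176). Cxcl16 was lower in lactation than in pregnancy at standard gravity (-1.29) and differed by 0.07 in hypergravity.

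The neutrophil ligand Cxcl1 and the monocyte ligand Ccl7 were higher in hypergravity lactation too. Cxcl1 measured 6.41, 5.11, 7.43 and 5.93 in hypergravity and 3.52, 3.72, 3.98, 3.82 and 6.25 at standard gravity. M202S at 6.25 lay within the hypergravity values, and the difference was 1.96 (SE 0.53, adjusted p = 0.0228). Ccl7 measured 5.69, 4.40, 4.12 and 4.38 against 3.45, 3.58, 3.75, 3.86 and 3.46, all higher, by 1.03 (SE 0.30, adjusted p = 0.0368). Its neighbour Ccl2 measured 7.98, 5.91, 5.76 and 5.49 against 4.58 to 5.07, and its difference of 1.43 with no overlap did not pass the test (adjusted p = 0.0542). M203H held the highest Ccl2 and Ccl7, and without it Ccl7 differed by 0.68 (adjusted p = 0.152). The Ccl7 call also ended without M216S (0.99), M201S (1.02), M219S (1.06), M206H (1.12) or M202S (0.99), and the Cxcl1 call without M216S (1.78), M201S (1.83), M203H (1.90), M217H (1.56) or M214S (1.85).

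Ccl11, which lies beyond Ccl7 in the same cluster, was lower in hypergravity lactation, as was Cxcl9. Ccl11 measured 7.09, 6.57, 7.30 and 7.53 in hypergravity lactation and 7.62 to 8.55 at standard gravity, all lower, by -0.91 (SE 0.28, adjusted p = 0.0446). Its call ended without M212H, an array with muscle genes (-0.73, adjusted p = 0.154), and without M52S, M59H, M44S, M201S, M203H, M219S, M217H, M214S or M48S, at -0.97 to -0.78. Cxcl9, an interferon-induced ligand of Cxcr3, measured 5.91, 5.33, 6.21 and 5.80 against 6.396, 6.73, 6.77, 7.20 and 6.77. It was lower in all arrays by -0.96 (SE 0.21, adjusted p = 0.00582), and its second probe set gave -0.96 as well. Cxcl10 and Cxcl11 were also lower in every hypergravity array, by -0.39 and -0.67, and were not called.

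Markers of several cell types moved with the gravity comparison in lactation, where 9.43% of all probe sets were called. The mean of 13 macrophage genes ran from 6.99 to 7.37 at standard gravity and from 7.60 to 8.28 in hypergravity, with 4 genes called higher and 0 lower, led by Cd14 (3.46) and Aif1 (1.02). The mean of 6 neutrophil genes ran from 4.26 to 4.61 and from 5.16 to 6.00, highest in M203H, with S100a8 (4.17) and S100a9 (2.38) called higher and the other 4 not called. Of 11 luminal epithelium genes 7 were called higher, and the list mean ran from 8.35 to 8.44 and from 9.29 to 9.64. The milk protein mean ran from 12.63 to 12.80 and from 12.20 to 12.35, with 2 of 7 genes called lower. Of the 13 interferon response genes 0 were called by limma, and the list mean ran from 5.07 to 5.57 and from 5.09 to 5.43. The part of these cell types in the chemokine differences was not tested.

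Genes that induce chemokines and carry their signal also moved, as did many others. Of all probe sets, 9.43% were called in the gravity comparison in lactation. In the stage comparison the share was 34.1% at standard gravity and 29.3% in hypergravity. Of 18 measured inducers, among them NF-kB subunits, interferon regulatory factors and cytokines, 4 were called higher and 0 lower in hypergravity against standard gravity in lactation: Stat3 (2.45), Nfkb2 (1.15), Nfkb1 (1.13) and Cebpb (0.70). Between lactation and pregnancy at standard gravity 10 inducers were called lower and 0 higher, led by Irf7 (-3.63), Nfkb2 (-3.33), Relb (-2.46) and Tnfaip3 (-1.95), and in hypergravity 6 were lower and 1, Stat3 (3.09), higher. Of 13 interferon response genes 10 were called lower in lactation than in pregnancy at standard gravity and 7 were lower in hypergravity, with 0 higher in either case, and Irf7, Ifit2 and Oasl had the largest differences at both gravities. Of 21 receptor signalling genes 4 were called higher and 7 lower in lactation at standard gravity, with Rac2 (-1.28), Fgr (-1.26) and Lyn (-1.12) lower and Gng2 (0.83) higher. In hypergravity lactation Jak2 (1.32), Lyn (0.99), Jak3 (0.95) and Rgs1 (0.92) were higher than at standard gravity and 0 were lower. The median over the inducers was -0.74 in the stage comparison at standard gravity and 0.28 in the gravity comparison in lactation.

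In the microgravity set, Ccl28 was the 1 chemokine gene called against either control. It measured 9.81, 9.72, 9.57 and 9.89 in microgravity, 8.76, 8.07, 7.78 and 8.30 in the flight controls and 8.42, 7.75, 8.51 and 7.71 in the vivarium controls. Every microgravity array was above every control array, and the controls overlapped with each other. The difference was 1.52 against the flight controls (SE 0.22, adjusted p = 0.0171) and 1.65 against the vivarium controls (SE 0.22, adjusted p = 0.0101), and both share the 4 microgravity arrays. These were 1 of 45 genes in each comparison, against 0.367% and 0.493% of all probe sets, and 0 of 45 were called by limma between the controls, against 0.00322%, with 4 at an unadjusted p under 0.05. Against the flight controls the call ended without FLTC (1.501, adjusted p = 0.0712) or FLTD (1.47, adjusted p = 0.067). The milk protein mean ran from 12.60 to 12.71 in microgravity, from 12.20 to 12.53 in the flight controls and from 12.26 to 12.55 in the vivarium controls, without overlap between microgravity and the controls. Of its 7 genes 0 were called by limma in either comparison (2 against the flight and 1 against the vivarium controls at an unadjusted p under 0.05), and its part in the Ccl28 difference was not tested. Levels were not set against the standard gravity and hypergravity arrays.

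The lymphoid ligands varied from array to array within the microgravity set. Ccl19, which acts with Ccl21 on Ccr7 of T cells and dendritic cells, measured 10.29 in FDSB, 6.90 in FDSD, 6.27 in FDSC and 3.25 in FDSA among the flight controls, 6.63 in FLTA and 3.42 to 3.64 in the other microgravity arrays, and 3.35 to 3.60 in the vivarium controls. FDSB was also the highest array for Ccl21 (10.47), Cxcl13 (11.42), Ccl17 (8.23), Ccl22 (5.09), Ccl20 (5.25), Ccr6 (7.24) and Cxcr3 (6.39). Its mean over 8 B and plasma cell genes was 8.15 and over 16 T and NK cell genes 7.33, the highest of the 12 arrays of this set. The Ccl19 difference between flight and vivarium controls was 3.23 (SE 1.12, adjusted p = 0.478), the smallest p of the chemokine genes there, followed by Ccr6 (1.68) and Ccl22 (0.95). Ccl28 in FDSB was the lowest of the flight controls. Without FDSB and FDSD, whose B and plasma cell means exceeded the median of these 12 arrays by more than 2 units, Ccl28 in microgravity differed from the flight controls by 1.57 (adjusted p = 0.0343), an alternative added after the data were seen. FDSC, at a mean of 5.42, and the microgravity array FLTA, at 5.50, were kept in it. The vivarium controls ran from 3.17 to 3.82.

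**Figure D5:**
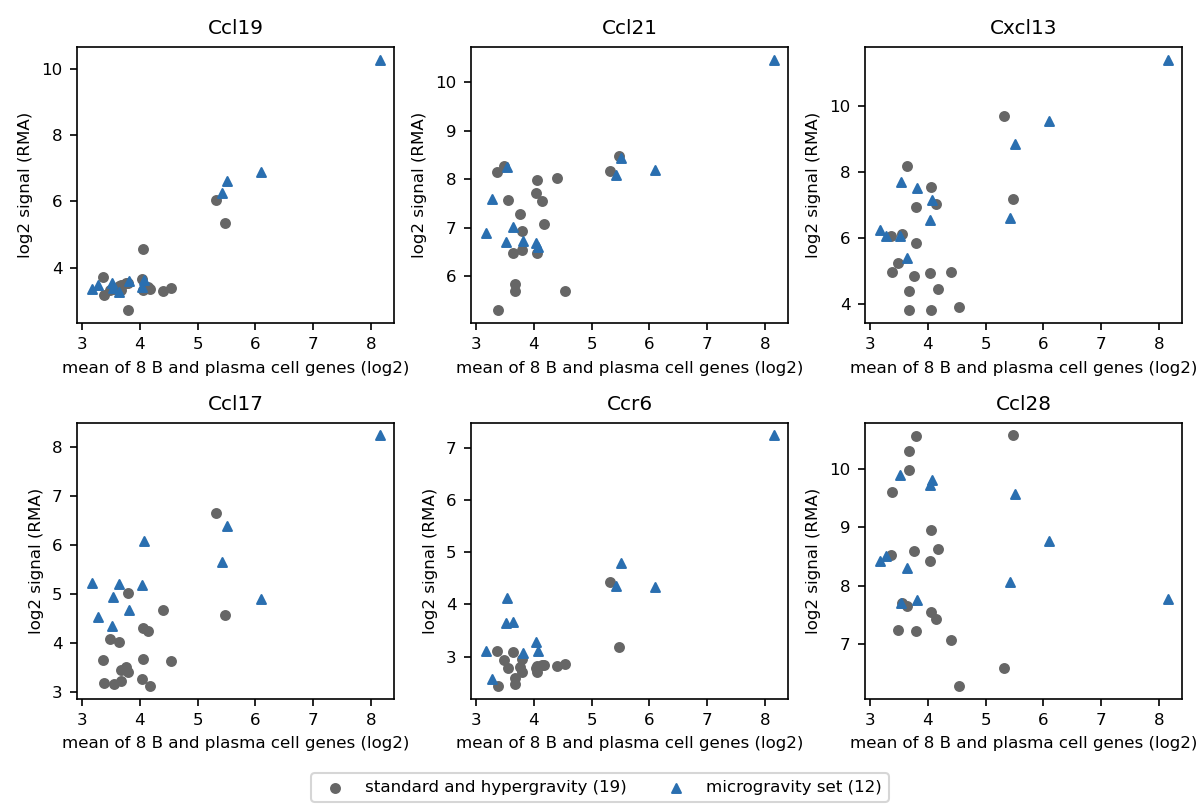
Log2 signal of 6 chemokine genes (y axes) against the mean log2 signal of 8 B and plasma cell genes (x axes) on 19 mammary arrays outside the microgravity set (grey circles) and 12 of the microgravity set (blue triangles). FDSB, at 8.15 on the x axis, is the highest point for Ccl19, Ccl21, Cxcl13, Ccl17 and Ccr6 and not for Ccl28; the 2 sets differ in array median, so heights are compared within a colour.

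Outside the microgravity set, the mammary arrays with the highest B and plasma cell means were M219S (5.47) and M60H (5.32). Ccl19 measured 6.05 in M60H and 5.36 in M219S, and Ccl21 measured 8.18 and 8.47. Ccl22 measured 4.78 and 3.15, and Cxcr3 4.82 and 3.54, so that these were high in M60H and not in M219S. M219S was the lactating array that lay above the pregnant values of Ccl21. In adipose tissue, A56H, A42S and A216S had the highest B and plasma cell means, at 6.69, 5.16 and 4.59, and Cxcl13 values of 11.69, 11.43 and 10.34. Ccl19 and Ccl21 were highest in A219S (7.08 and 9.51), whose B and plasma cell mean was 3.54. They measured 5.92 and 5.36 in A56H, 3.85 and 3.80 in A42S and 3.97 and 3.35 in A216S. The adipose medians were 3.85 and 5.36, so Ccl19 was high in A56H and not in A42S. How much RNA of lymph node or lymphoid tissue these arrays hold was not measured.

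In the liver few chemokine genes changed with stage or gravity. At standard gravity 1 of 45 was called between lactation and pregnancy, against 0.622% of all probe sets, and in hypergravity 1 of 45 against 3.23%. Cxcl14, an epithelial chemokine of monocytes and dendritic cells, measured 6.23, 5.21, 5.57, 5.75 and 6.55 in pregnancy and 3.05, 3.63, 4.87, 3.62 and 5.003 in lactation at standard gravity. All lactating arrays were lower, by -1.83 (SE 0.40, adjusted p = 0.0343). Without L214S, which carried milk protein genes, and L55H the difference was -1.72 (adjusted p = 0.0861), and the call ended without L216S (-1.58), L52S (-1.74), L44S (-1.90), L201S (-1.73), L214S (-1.72) or L48S (-1.66), with adjusted p up to 0.108. Its dimmer probe set gave -0.28.

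Ccl27 was higher in lactating than in pregnant liver in hypergravity, with 4.73, 4.93, 5.63, 6.61 and 5.95 against 4.205, 4.81, 4.35, 3.69 and 4.58. The arrays overlapped, the difference was 1.24 (SE 0.30, adjusted p = 0.0261), and the call ended without L59H (1.21), L50H (1.25), L56H (1.09), L217H (0.98) or L206H (1.15), with adjusted p up to 0.0782. At standard gravity Ccl27 differed by 0.65 and was not called. Cxcl9 was lower in every lactating liver at standard gravity, by -1.29, and did not pass the test (adjusted p = 0.0589). In the same comparison 7 of 13 interferon response genes were called lower and 0 higher, and the list mean ran from 6.32 to 6.76 in pregnancy and from 5.19 to 5.64 in lactation.

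Between gravities 0 of 45 genes were called by limma in pregnant liver, against 0.103% of all probe sets, and 0 in lactating liver, against 0.406%, with 7 at an unadjusted p under 0.05 in each. The interaction gave 0 of 45 against 0.126%, with 2 at an unadjusted p under 0.05. In pregnancy Cxcl1 measured 5.95, 5.32, 4.88, 4.25 and 5.51 in hypergravity and 7.54, 7.16, 6.32, 6.74 and 6.84 at standard gravity, all lower, and its difference of -1.74 (SE 0.46) was not called (adjusted p = 0.198). Ccl4 (-0.51, adjusted p = 0.146) and Cxcl9 (-0.97, adjusted p = 0.338) were likewise lower in every array without a call. In lactation the smallest p values were those of Cx3cr1 (0.44), Cxcl16 (-0.65) and Cxcl1 (-1.36), at adjusted p of 0.153 to 0.223. The median over the 45 genes in pregnancy was -0.13, and over all probe sets -0.02.

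In adipose tissue no chemokine gene was called by limma in any of the 5 comparisons. Between lactation and pregnancy the count was 0 of 45 at standard gravity, against 0.00322% of all probe sets and with 3 genes at an unadjusted p under 0.05, and 0 in hypergravity, against 0% and with 0 such genes. Between gravities it was 0 in pregnancy (0% of all, 1 gene at an unadjusted p under 0.05), 0 in lactation (0%, 0 genes) and 0 for the interaction (0%, 1 gene). Cxcl14 had the smallest p at standard gravity, with 5.27 in lactation and 4.12 in pregnancy, a difference of 1.15 (SE 0.25, adjusted p = 0.548). Ccr1 differed there by 1.04 and Ccl11 by -1.54, both with overlapping arrays. Without A48S, the array with muscle genes, Ccr1 differed by 0.58. Cxcl13 ran from 4.49 to 11.69 across the 19 adipose arrays and Ccl2 from 6.18 to 10.12, so single arrays of a group spanned several log2 units.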

How the data were processed

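RNA from rat mammary gland, liver and adipose tissue was hybridised to Affymetrix arrays, 72 in all. The deposited values are log2 signals per probe set, made by the authors with RMA per the submitters' processing notes, whose version and batches are not given in the sources used here. No normalization was added, so values keep any effect of the RNA kit, which differed for adipose tissue per the labels' protocols. Group means were fitted per tissue with limma 3.58.1 in R 4.3.3 (lmFit, eBayes), for the microgravity set apart, and for all tissues together in the tissue comparisons. P-values were adjusted by the Benjamini-Hochberg method over all 31042 probe sets, and a call is an adjusted p under 0.05. Every adjusted p in the text is from limma. The scripts were tested on simulated data. The number of arrays limits the precision. The labels do not say that samples of a group were separate litters, so p-values measure the spread between these samples.

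Genes were named from GEO's platform annotation: 20826 probe sets had 1 symbol, 436 several and 9780 none. Called chemokine genes were named, up to 12 in each direction, or the 3 with the smallest p where none was called. The members and gene lists were chosen with earlier results of these data known. Motifs of other factor families were also searched and are not reported. M210H and A210H were left out. Alternatives were other arrays left out, dim probe sets left out, only the groups compared, array weights, median scaling and the mean of a gene's probe sets. Further ones were each array left out in turn, rat code as a replicate block and the letter as a further term of the fit. Rat codes pair the tissues of an animal: deviations of 57 same-rat pairs correlated at -0.047 to 0.33, median 0.134. In the microgravity set the letters A to D did not pair (12 pairs, -0.153 to 0.083).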

Additional observations from a re-analysis of the deposited data

Results flagged for a closer look

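Within groups of 4 or 5 arrays, 66 levels of chemokine genes were examined for a single distant array, and 4 were found, where chance gives about 1 in 20. They were Cxcl16 at 11.20 in M44S and Cxcr4 at 11.30 in M42S, both pregnant mammary arrays at standard gravity, Ccl2 at 7.98 in the hypergravity lactation array M203H, and Cxcl1 at 6.25 in the standard gravity lactation array M202S.

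The stage effect differed between the gravities by limma's interaction term for Ccr1 (0.71, adjusted p = 0.0176) and Cxcl16 (1.35, adjusted p = 0.0141).

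The arrays left out of every comparison held values outside those of their labelled tissue. M210H, labelled mammary gland, measured 11.56 for Ackr3, 6.86 for Ccl24, 8.84 for Ccl7 and 6.80 for Ccr1, where the 19 mammary arrays reached at most 9.22, 4.83, 5.69 and 4.58. A210H, labelled adipose tissue, measured 8.58 for Ccl28, where the 19 adipose arrays reached at most 3.87.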

How the results depend on the processing

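The number of chemokine genes called moved by over 1.5 times in a few settings. For the mammary interaction it was 1 with M210H and A210H kept and 1 with dim probe sets left out. For the mammary stage effect in hypergravity it was 8 with only the groups compared. For the liver stage effect at standard gravity it was 0 without arrays carrying markers of another tissue, 2 with dim probe sets left out and 2 with the mean of probe sets. For that in hypergravity it was 2 with dim probe sets left out and 0 with only the groups compared, and for gravity in pregnant liver it was 1 with only the groups compared. With each array left out in turn, the count ran from 4 to 8 for gravity in mammary lactation, from 0 to 2 for both liver stage effects and from 0 to 1 for microgravity against flight control. Between adipose tissue and liver, Ccr3 reversed to -0.0071 with median scaling and Cxcl12 to -0.51 with the mean of its probe sets, which disagree. With rat code as a replicate block, 33, 30 and 30 genes were called in the 3 tissue comparisons. With the letter as a further term of the fit, 1, 1 and 0 were called in the microgravity set. Neither setting changed the call of a named gene. With M210H kept, the Ccr1 interaction was 1.19 (adjusted p = 0.240) and Cxcl13 in the hypergravity stage comparison was -1.93 (adjusted p = 0.186), both no longer called by limma. Where no cause is given, the cause was not tested. Probe sets near or under the array medians, such as Ccr1, Cxcl10, Cxcl11 and Ccl27, give folds that are approximate.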
